A study of Mus musculus with 2 samples.

Results

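Cholesterol and fatty acid synthesis genes form a set of 37 genes that make, sense, move and modify sterols and fatty acids. They were chosen by name, and their probes were found through the transcript accession of each probe. Of the 37 genes, 36 had at least 1 named probe, and all of these 36 were well above background on both arrays, out of 17176 named genes and 11957 well above background on both. No probe was matched to Idi1, the isomerase of the isoprenoid precursors, so it is not analysed here. The study hybridised total RNA of CD4+ helper T cells and of CD8+ cytotoxic T cells, both sorted from splenocytes of wild-type C57B6 mice, to 1 single-colour Agilent array each. The labels record no treatment, age or sex for either group, and the sources used here do not give the surface markers of the sort. With 1 array per cell type there is no biological replicate, so every difference below compares these 2 arrays and carries no p-value.

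Cholesterol is built from acetyl-CoA in the cytosol and the endoplasmic reticulum. The mevalonate pathway first makes isoprenoids and squalene, and a later series of enzymes closes squalene into a ring and trims it to cholesterol. When sterol in the endoplasmic reticulum runs low, the escort protein SCAP carries the SREBP factors to the Golgi, where they are cut and sent to the nucleus to switch on these genes, while INSIG proteins hold them back when sterol is plentiful. Liver X receptors (LXR) sense oxysterols and drive sterol export. Resting T cells make little lipid, and antigen stimulation induces the SREBP program to supply membrane for growth.

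The values are the scanner software's processed signals, which are background-subtracted brightness, given with that software's own error. Differences are log2 of the CD8+ over the CD4+ signal after each array was scaled to its 75th percentile (508.4 in CD4+ and 449.9 in CD8+ cells), so a signal that is equal on both arrays becomes 1.13-fold higher in CD8+ cells. Values named for CD4+ or CD8+ cells are those of the array of that cell type. A positive difference means higher in CD8+ cells. The software error of a member's log2 difference was 0.20 to 0.22, and different probes of a gene differed with an SD of 0.23 over 3972 genes and of 0.26 over the 15 members with several probes above background on both arrays. Both of these are technical, and neither contains the spread between mice.

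The sort was visible in the marker genes. Cd8a, the CD8 alpha chain, had a processed signal of 535 ± 53.6 (software error) in CD4+ cells and 49982 ± 4998 in CD8+ cells, and Cd4 had 307 ± 30.9 and 67.1 ± 7.46. Cd8b1 had no named probe. Markers of other splenic cells were present as well. None of the markers with a probe was at 0, and the 4 NK cell markers had a median log2 difference of -1.65 and the 5 dendritic cell markers on both arrays one of -1.31, while the 7 B cell markers had 0.54. In bulk RNA, fewer cells of a type and less RNA per cell cannot be told apart.

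Most of the larger differences among the members lay in the later sterol enzymes, several of which were lower in CD8+ cells. Promoters of 4 of these enzymes, and for comparison those of an earlier sterol enzyme and of the fatty acid synthase, are shown because their known regulators, SREBP and its partner NF-Y, bind next to the transcription start. Of the 37 members, 30 were matched by symbol to a RefSeq promoter window (GRCm38.p6, 250 bases before to 50 after the start), with no entry for Fdps, Fdft1, Sqle, Abcg1, Scd1, Scd2 and Fads1. Each line gives the 150 bases just before the annotated start, 5′ to 3′ on the gene's strand. Capitals mark matches, on either strand, to TCACNCCAC (a sterol element of SREBP), CACGTG (the E box), CCAAT (the NF-Y box, ATTGG on the other strand) or the LXR element, which is a direct repeat of AGGTCA with 4 letters between.
Cyp51: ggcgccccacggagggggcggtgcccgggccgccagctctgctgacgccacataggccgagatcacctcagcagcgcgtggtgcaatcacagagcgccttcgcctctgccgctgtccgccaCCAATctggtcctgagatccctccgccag
Sc5d: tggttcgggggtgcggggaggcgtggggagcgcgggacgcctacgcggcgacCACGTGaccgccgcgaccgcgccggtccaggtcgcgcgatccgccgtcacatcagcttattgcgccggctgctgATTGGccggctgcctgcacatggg
Tm7sf2: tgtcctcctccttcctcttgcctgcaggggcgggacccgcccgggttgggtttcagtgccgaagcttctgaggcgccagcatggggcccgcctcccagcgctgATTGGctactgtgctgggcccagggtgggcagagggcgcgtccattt
Nsdhl: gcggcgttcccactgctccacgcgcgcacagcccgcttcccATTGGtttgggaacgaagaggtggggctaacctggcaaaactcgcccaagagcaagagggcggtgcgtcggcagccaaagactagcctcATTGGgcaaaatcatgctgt
Hmgcs1: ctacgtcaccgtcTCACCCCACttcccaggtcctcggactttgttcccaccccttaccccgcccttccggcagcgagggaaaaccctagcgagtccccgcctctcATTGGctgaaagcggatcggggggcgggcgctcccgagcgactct
Fasn: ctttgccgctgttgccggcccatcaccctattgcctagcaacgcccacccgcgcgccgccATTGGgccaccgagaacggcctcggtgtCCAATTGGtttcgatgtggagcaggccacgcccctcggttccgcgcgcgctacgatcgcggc
The first 4 belong to later sterol enzymes, Hmgcs1 to the entry of the mevalonate pathway and Fasn to fatty acid synthesis. Their places are chr5:4104698-4104847 (- strand) for Cyp51, chr9:42264301-42264450 (- strand) for Sc5d, chr19:6067851-6068000 (- strand) for Tm7sf2, chrX:72918371-72918520 (+ strand) for Nsdhl, chr13:119690201-119690350 (+ strand) for Hmgcs1 and chr11:120824548-120824697 (- strand) for Fasn, all in GRCm38.p6.

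Each of these 6 stretches held at least 1 CCAAT box. In Fasn, the synthase that makes palmitate, 2 of its 3 boxes overlapped on opposite strands. The sterol element as spelled was found in Hmgcs1 alone among the members, with its first base at -137 from the start, and in 1.24% of all 32851 windows. An E box lay at -98 in Sc5d and in 7 member genes in all, which is 23.3% of the members with a window against 8.09% of all 27025 genes with one. The CCAAT box was present in 22 of 30 members (73.3%) and in 41.1% of all genes. By role it stood in 8 of 8 later sterol genes and 5 of 6 earlier ones, in 2 of 3 fatty acid synthesis genes and in 1 of 4 genes of sterol efflux, LXR and esterification. No member window held the LXR element, which 5 of the 32851 windows contained. A match is a description of letters, and no binding was measured.

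Across all 36 measured members the differences were small. Only 1 member was at least 2-fold apart (2.78%), against a background of 5.77% of the 11957 genes in either direction, 3.83% higher in CD4+ cells and 1.94% higher in CD8+ cells. At least 1.5-fold apart were 6 members (16.7%), against 14.0% of all genes, so the share of the whole set lay near the background. The 6 were Sqle, Cyp51, Sc5d and Nsdhl, higher in CD4+ cells, and Scd1 and Acaca, higher in CD8+ cells. The median difference was 0.05 over the members and 0.02 over all genes, and 21 members (58.3%) were higher in CD8+ cells, beside 53.7% of all genes. Of the members, 9 differed by more than 2 software errors and 14 by less than 1. These shares were not computed over all genes, so the counts do not set the members apart from other genes. The median absolute difference was 0.23 over the members and 0.19 over all genes.

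**Figure D1:**
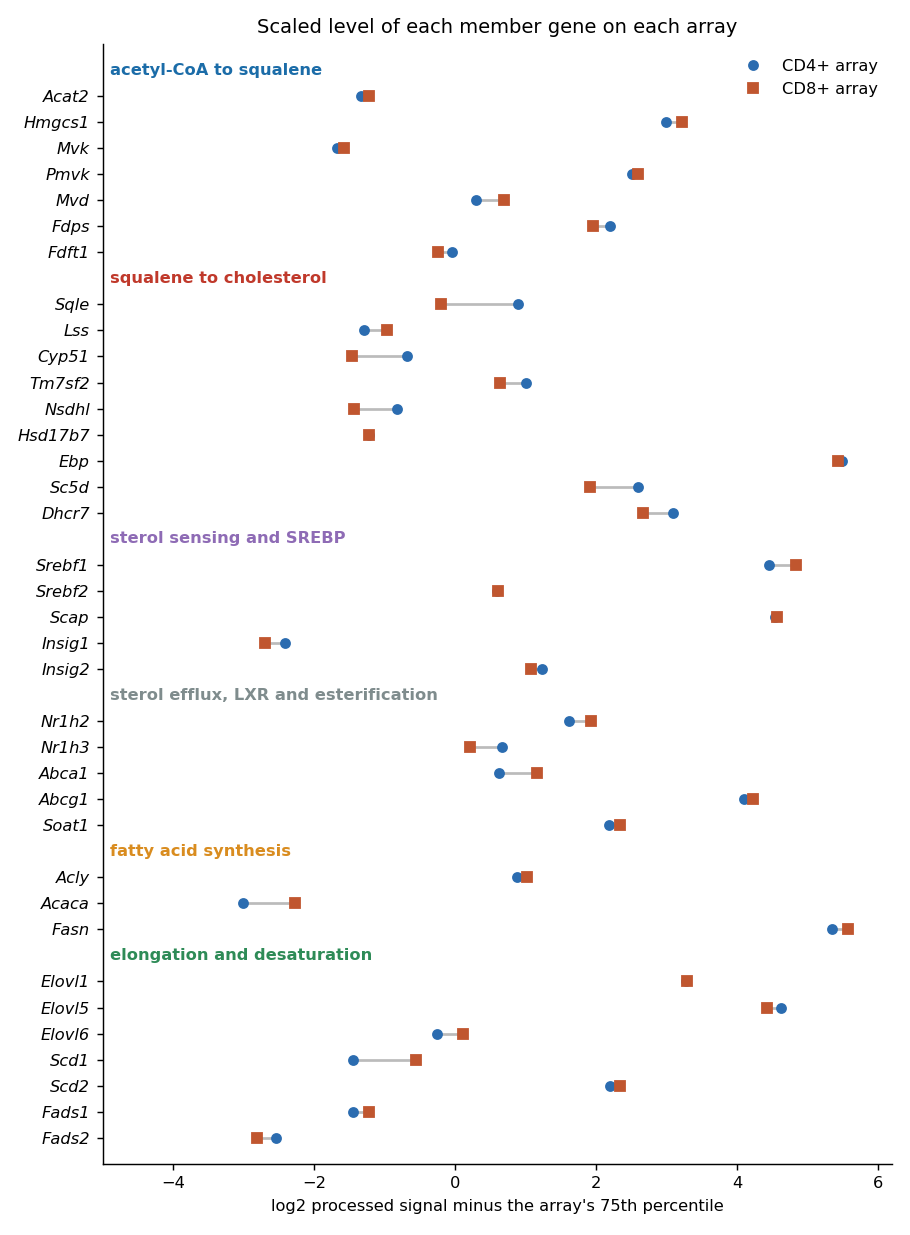
Scaled level (log2 processed signal minus the array's 75th percentile, x axis) of the 36 measured members in CD4+ cells (circles) and CD8+ cells (squares), grouped by role. The gap between the 2 symbols of a row is the difference; levels of different rows come from different probes and are not comparable. The widest gaps are those of Sqle, at 0.89 and -0.21, and Scd1, at -1.44 and -0.55.

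The enzymes from acetyl-CoA to squalene differed little. None of the 7 measured members was 1.5-fold apart, and 5 were higher in CD8+ cells, as were 53.7% of all genes. Hmgcs1, which condenses acetyl units into the precursor of mevalonate, had processed signals of 4050 ± 405 in CD4+ and 4176 ± 418 in CD8+ cells, a log2 difference of 0.22, and its dimmer probe gave 0.32. Mvd, the decarboxylase that makes the first isoprenoid unit, had the largest difference of this arm, 622 ± 62.2 and 726 ± 72.7, or 0.40. The thiolase gene Acat2 (0.12), the kinases Mvk (0.10) and Pmvk (0.08) lay within 1 software error of 0, and the 2 probes of each kinase took opposite signs. At the end of the arm the sign turned. Fdps, the synthase of farnesyl diphosphate, was 1.18-fold higher in CD4+ cells (2331 ± 233 and 1749 ± 175), and Fdft1, which joins farnesyl units into squalene, 1.16-fold (495 ± 49.6 and 378 ± 38.0). Both of these differences exceeded 1 software error by little and stayed below 2.

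From squalene to cholesterol, 8 of 9 genes were lower in CD8+ cells, as were 5535 of all 11957 genes. With scaling to the median 6 of 9 were, where 71.5% of all genes were higher in CD8+ cells. With quantile normalization or normexp 7 were. Among the 8, Ebp and Hsd17b7 did not differ beyond their error. The separate counts and median of this arm were not among the planned results, so they only describe these arrays. Of the 9 genes, 4 were lower by at least 1.5-fold (2 with scaling to the median or normexp), where 8.54% of all genes were that much higher in CD4+ cells. The median difference of these 9 was -0.43, but -0.13 with the mean over the probes of each gene and -0.21 over the 16 probes. Sqle, the squalene epoxidase that starts this arm and is one of its rate-limiting steps, had a processed signal of 943 ± 94.3 in CD4+ cells and 390 ± 39.1 in CD8+ cells. It was therefore 2.14-fold higher in CD4+ cells (log2 difference -1.10), the largest difference of any member and at percentile 3.29 among the differences of all genes. The log2 difference was -0.95 with scaling to the median and -0.97 with normexp background correction, both short of 2-fold. Sqle rests on 1 probe.

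Cyp51, the demethylase of lanosterol, gave 317 ± 31.9 in CD4+ and 163 ± 16.6 in CD8+ cells, 1.72-fold higher in CD4+ cells. Its 3 probes agreed in sign, with differences of -0.78, -0.58 and -0.49, and with normexp its difference was -0.47, short of 1.5-fold. Sc5d, the sterol desaturase that acts near the end of the pathway, gave 3071 ± 307 and 1691 ± 169, 1.61-fold higher in CD4+ cells by its single probe (log2 difference -0.68, and -0.54 with scaling to the median, short of 1.5-fold). By the probe used and with scaling to the 75th percentile, these 3 genes, Sqle, Cyp51 and Sc5d, lay more than 3 software errors from 0. Scd1 and Acaca did so in the other direction.

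Other genes of the arm were less certain. Nsdhl, a dehydrogenase that helps remove the methyl groups of lanosterol, was 1.53-fold higher in CD4+ cells by its brightest probe (288 ± 28.9 and 167 ± 17.0). Its other 2 probes gave 0.00 and 0.22, so the probes of Nsdhl disagreed by more than the error of each, and its difference fell short of 1.5-fold with scaling to the median (-0.47), quantile normalization (-0.56), normexp (-0.58) and the mean over probes (-0.13). Dhcr7, a reductase near the end of the pathway, was 1.34-fold higher in CD4+ cells by its bright probe (4344 ± 434 and 2862 ± 286), while a dim probe at 103 ± 10.7 and 121 ± 12.5 gave 0.40 in the other direction. Tm7sf2, a sterol reductase, had 1017 ± 102 and 699 ± 70.0, a difference of -0.36 by 1 probe. Ebp, the sterol isomerase (-0.06), and Hsd17b7, the ketone reductase (-0.01), did not differ beyond their error. Lss, the cyclase that closes the ring between Sqle and Cyp51, was the exception, with 208 ± 20.9 and 231 ± 23.3, or 0.33, and its second probe gave 0.22. Counted by probe, 11 of the 16 probes of this arm were lower in CD8+ cells. The share over all probes was not computed, and by gene 53.7% of all genes were higher in CD8+ cells.

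**Figure D2:**
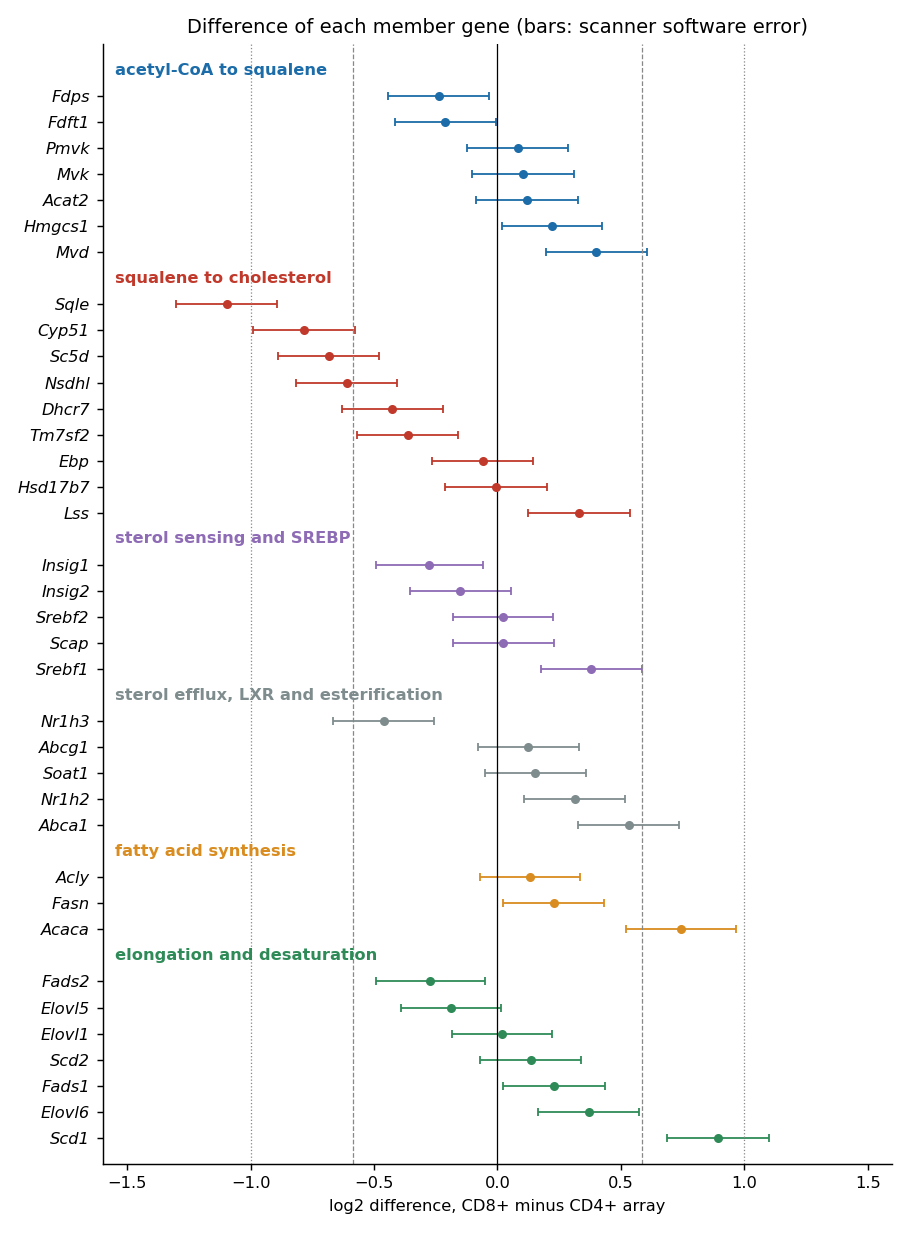
Log2 difference, CD8+ minus CD4+ array (x axis), of the 36 measured members grouped by role, with bars of 1 software error; dashed lines mark 1.5-fold and dotted lines 2-fold. Sqle at -1.10 lies beyond 2-fold, Cyp51, Sc5d and Nsdhl beyond 1.5-fold on the CD4+ side, and Scd1 at 0.89 and Acaca at 0.74 beyond 1.5-fold on the CD8+ side.

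**Figure D3:**
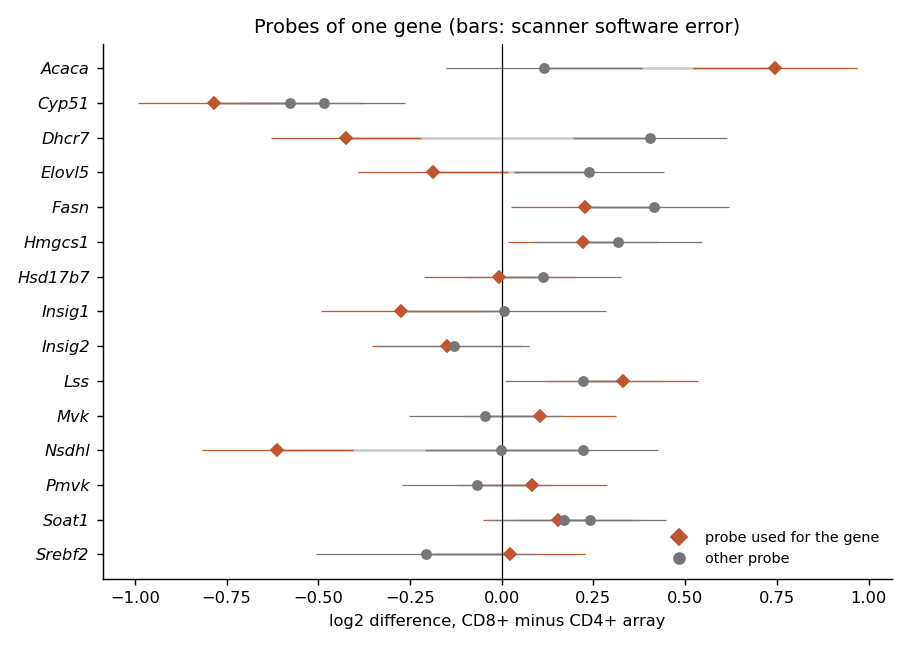
Log2 difference (x axis) of each probe above background on both arrays, for the 15 members with more than 1 such probe; diamonds are the probes used for the gene and bars are 1 software error. The probes of Cyp51, Lss, Soat1, Fasn and Hmgcs1 stay on 1 side of 0, while those of 8 genes, among them Nsdhl and Dhcr7, lie on both sides.

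Genes of other kinds were lower in CD8+ cells beside the later sterol genes. Of all 11957 genes, 5535 were lower in CD8+ cells, which is the share to set beside the counts below. Of 12 proliferation genes, 10 were lower in CD8+ cells, with a median of -0.55. Their summed processed signal, unscaled as are the sums below, was 39910 in CD4+ and 33478 in CD8+ cells, and most of it was Pcna, the replication clamp (29252 and 25445, a scaled difference of -0.03), so the sum shows little of the other genes. Bub1, a spindle checkpoint kinase, was 2.50-fold higher in CD4+ cells and Cdk1, the mitotic kinase, 1.83-fold, while Mcm5, a replication helicase subunit, differed by 0.34 in the other direction. Dendritic cell markers, 4 of 5 lower in CD8+ cells, had summed signals of 2968 and 1055, with Cd209a at -3.21 and Xcr1 at 0.35. Among the alternatives Cd209a shrank to -1.35 at the smallest, and Xcr1 reached 1.69 at the largest. NK cell markers, lower in 4 of 4, had 13357 and 5833, with Klrb1c at -2.34 and Fcer1g at -0.45. Macrophage and monocyte markers, 5 of 7 lower, had 40610 and 32622, with Lyz2 at -2.17 and Csf1r at 0.05. The part of any of these in the sterol differences was not tested.

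The genes of the sterol sensor had small differences. Srebf2, the SREBP gene tied mainly to cholesterol synthesis, had 763 ± 76.4 in CD4+ and 686 ± 68.7 in CD8+ cells, a difference of 0.02, and its dim probe gave -0.21. Scap differed by 0.02 as well (11837 ± 1184 and 10647 ± 1065). Srebf1, whose product drives mainly fatty acid genes, was 1.30-fold higher in CD8+ cells (11078 ± 1108 and 12757 ± 1276, log2 difference 0.38). Insig1, itself a target of SREBP, had 95.0 ± 9.88 and 69.5 ± 7.55, a difference of -0.28, but its second probe gave 0.00. Insig2 was -0.15 and -0.13 by its 2 probes. No gene of the 5 was 1.5-fold apart.

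Of the 5 sterol export and storage genes, 4 were higher in CD8+ cells, as were 53.7% of all genes (Abcg1 turned to -0.05 with normexp), and 2 of these 4, Abcg1 and Soat1, lay within 1 software error of 0. None of the 5 passed 1.5-fold except Abca1 with scaling to the median. Abca1, the transporter that loads cholesterol onto apolipoproteins and a known LXR target, had 784 ± 78.5 in CD4+ and 1003 ± 100.3 in CD8+ cells, 1.45-fold higher in the latter (0.53). Abcg1, the partner transporter and also an LXR target, differed by 0.12 (8693 ± 869 and 8389 ± 839). The receptors themselves took opposite signs. Nr1h2 (LXR beta) was 1.24-fold higher in CD8+ cells (1559 ± 156 and 1714 ± 171), and Nr1h3 (LXR alpha), which macrophages also express, was 1.38-fold higher in CD4+ cells (807 ± 80.7 and 518 ± 51.9). Soat1, which esterifies cholesterol for storage, differed by 0.15, 0.17 and 0.24 by its 3 probes.

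Fatty acid synthesis enzymes were higher in CD8+ cells in 3 of 3 cases, where 53.7% of all genes were, except that with normexp Acly lay at 0 (-0.00). Acly lay within 1 software error of 0 and Fasn just beyond it. Acaca, the acetyl-CoA carboxylase that makes malonyl-CoA, had 63.2 ± 7.11 in CD4+ and 93.6 ± 9.93 in CD8+ cells by its brightest probe, 1.68-fold (0.74), where 5.5% of all genes were at least 1.5-fold higher in CD8+ cells. A dimmer probe of Acaca gave 0.11, another, well above background in CD4+ cells only, lay the other way at -0.53 (22.3 ± 3.47 and 13.7 ± 3.45), and the last was well above background on neither array, so its difference rests on 1 weak probe, and it was 0.49 with normexp, short of 1.5-fold. Fasn was 1.17-fold higher (20612 ± 2061 and 21362 ± 2136), and its second probe gave 0.41. Acly, which supplies cytosolic acetyl-CoA from citrate, differed by 0.13 (936 ± 93.7 and 908 ± 90.8).

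Among desaturases and elongases, Scd1 had the largest difference. This enzyme, which puts the first double bond into stearoyl-CoA, had 187 ± 19.0 in CD4+ and 307 ± 30.9 in CD8+ cells, 1.86-fold higher in CD8+ cells (0.89). Scd2, the related desaturase, had 2330 ± 233 and 2263 ± 226, a difference of 0.13. Each rests on 1 probe, and whether the probes cross-react between these related genes was not tested. Elovl6, the elongase that extends palmitate, was 1.29-fold higher in CD8+ cells (425 ± 42.6 and 485 ± 48.6), Fads1, a desaturase of polyunsaturated fatty acids, 1.17-fold (186 ± 18.8 and 193 ± 19.5). Fads2, which acts before Fads1, leaned the other way at -0.27 (87.4 ± 9.18 and 64.1 ± 7.11). Elovl1, an elongase of very long chains, differed by 0.02, and the 2 probes of Elovl5, an elongase of polyunsaturated chains, gave -0.19 and 0.24.

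**Figure D4:**
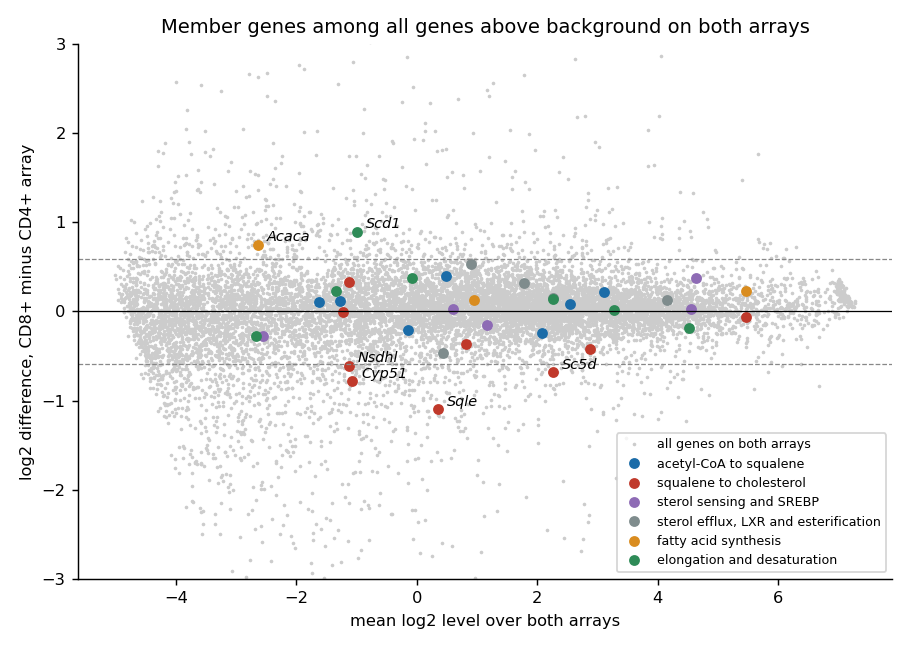
Log2 difference (y axis) against the mean log2 level over both arrays (x axis) for the 11957 genes above background on both arrays (grey) and the 36 members (coloured by role); dashed lines mark 1.5-fold, and 34 genes beyond 3 on the y axis are not drawn. Most members lie inside the dense band of all genes, with the 6 named ones outside the dashed lines.

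The wider pathway, 63 genes listed by function and not among the members, was near the background of all genes. Of the 51 above background on both arrays, 6 were at least 1.5-fold apart (11.8%, against 14.0% of all genes). Of these, 1 was higher in CD8+ cells and 5 in CD4+ cells, where 5.5% and 8.54% of all genes were. Among the other sterol and isoprenoid genes, none of 12 passed 1.5-fold, though Lipa did with normexp (1.56-fold). Of the 12, 4 were higher in CD8+ cells and 8 in CD4+ cells, where 53.7% of all genes were higher in CD8+ cells. Msmo1, an oxidase that acts after Cyp51, had -0.26 (5214 ± 521 and 3865 ± 387). Lbr, another gene of that list, had 0.20 (6493 ± 649 and 6601 ± 660). Lipa, the lysosomal lipase that frees cholesterol from its esters, had the largest difference of that list towards CD4+ cells at -0.51, and Scarb1, a lipoprotein receptor, the largest the other way at 0.31. Genes that process SREBP or pair with LXR lay between -0.26 (Rxra) and 0.35 (Rxrb), both retinoid X receptors, and none of 9 passed 1.5-fold.

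Larger differences were found among enzymes that modify and activate fatty acids. Of 13 other fatty acid synthesis genes, with a median of 0.03, 1 was at least 1.5-fold higher in CD8+ and 3 in CD4+ cells. The shares over all genes were 5.5% and 8.54%. Elovl7, an elongase of long chains, had 276 ± 27.7 in CD4+ and 994 ± 99.4 in CD8+ cells, 4.07-fold higher in CD8+ cells (3.35-fold with normexp). Fads3, a desaturase of the Fads family, had 153 ± 15.6 and 34.4 ± 4.64, 3.92-fold higher in CD4+ cells (1.87-fold with normexp). Thrsp, a small protein tied to lipogenesis, was well above background in CD4+ cells only, at 65.5 ± 7.05 against 8.84 ± 3.23, at least 3.94-fold higher there when set against the lowest level called in CD8+ cells. Acacb, the mitochondrial carboxylase whose product restrains fatty acid oxidation, was 1.74-fold higher in CD4+ cells, and Hacd3, a dehydratase of chain elongation, 1.5-fold, just at the threshold and 1.36-fold at the lowest among the alternatives. Of the 4 acyl-CoA synthetases on both arrays, which activate fatty acids, 2 were at least 1.5-fold higher in CD4+ cells, beside the same 8.54%. Acsl3 was 1.89-fold and Acsl1 1.56-fold higher there (1.36-fold at the lowest among the alternatives), and Acsl5 differed by 0.16. In fatty acid oxidation none of 13 genes passed 1.5-fold, and they ran from -0.26 (Acadvl) to 0.38 (Acads), both acyl-CoA dehydrogenases, with a median of 0.06.

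**Figure D5:**
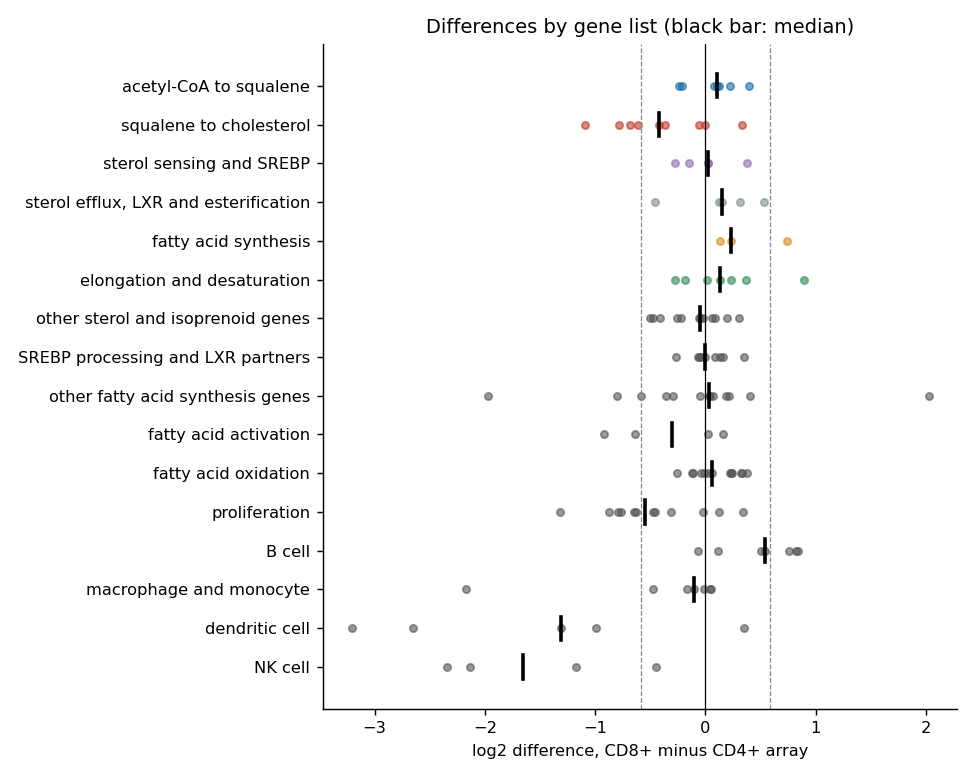
Log2 difference, CD8+ minus CD4+ array (x axis), of each gene above background on both arrays, by list; black bars are medians and dashed lines mark 1.5-fold. The medians of the later sterol genes (-0.43) and the proliferation genes (-0.55) lie to the left of 0. Among these later sterol and proliferation genes, Lss (0.33), Mcm5 (0.34) and Mcm2 (0.13) lie to the right. The medians of the dendritic cell (-1.31) and NK cell markers (-1.65) lie further left, with fatty acid activation at -0.31, while B cell markers (0.54) lie to the right. The 3 fatty acid synthesis genes (median 0.23) lie to the right of 0, and fatty acid oxidation (0.06) around it.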

How the data were processed

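Total RNA of sorted splenic CD4+ and CD8+ T cells was labelled with Cy3, per the labels' protocols, with 1 array for each cell type. The deposited scanner files hold a linear intensity for every spot. The processed intensity was background-subtracted and detrended by Feature Extraction 10.1.1.1, per the file headers, without scaling between arrays; the submitters' processing notes name version 9.1. The authors' value table equals the median pixel intensity at 45018 of 45018 spots on each array. The file headers also give spot flags, used for background, saturation and outliers, which have no unit.

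From these, log2 signals were scaled to the 75th percentile over non-control probes; outlier spots (99 and 92) were left out, and spots of a probe were averaged. Well above background were 63.1% of non-control spots on the CD4+ and 58.6% on the CD8+ array. Accessions named 24844 of 41174 probes (60.3%) through a RefSeq table of GRCm38.p6, used for names alone since the headers name mm9. A gene took its brightest probe among those well above background on both arrays (most of its spots or an equal share), else on 1. All members are named. Other named genes are mainly those at least 1.5-fold apart or most extreme in their list, while Msmo1, Lbr, Pcna and Mcm2 are neither. Marker genes of neutrophils (median 0.08 over 4) and erythroid cells (-0.20 over 3) were listed too. The members and lists were chosen with earlier results of these data known. No test was possible with 1 array per group, whose number sets the limit on precision. The computation was tested on simulated data. Alternatives are normexp (offset 50, on median signals because no mean signal is in the files), other scalings, quantile and loess (span 0.3) normalization, the authors' values, probe filters and the mean over probes. Python 3.11.15, numpy 2.4.6, pandas 2.3.3, statsmodels 0.14.6, R 4.3.3 and limma 3.58.1 were used.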

Additional observations from a re-analysis of the deposited data

How the results depend on the processing

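Of the 36 measured members, 28 kept their sign under every one of the 11 alternatives that could be computed for them, and 8 with small differences did not. Saturated probes left out, outlier spots kept, no filter on dim probes and brighter probes alone left each computed member difference unchanged. A sign could therefore turn only under the other alternatives. None of the 6 members at least 1.5-fold apart changed sign. Sqle ranged from -1.14 to -0.95, Scd1 from 0.81 to 1.04, Sc5d from -0.73 to -0.54, Cyp51 from -0.83 to -0.47, Acaca from 0.43 to 0.89 and Nsdhl from -0.66 to -0.13. With normexp 0 members were 2-fold and 3 were 1.5-fold apart (background 8.51%), and with the series values 0 were 2-fold apart. Brighter probes alone kept 25 members, 2 of them 1.5-fold apart (background 7.56%). Results for the later sterol genes alone were not planned beforehand. Of the 9 later sterol genes, 8 were higher in CD4+ cells, as were 5535 of all 11957 genes, and with median scaling 6 of the 9 were. With brighter probes alone 5 of 5 were, and without the genes whose probes take opposite signs, an alternative chosen after seeing the data, 5 of 6. The count of 4 later sterol genes with CD4+ cells ahead by 1.5-fold or more became 2 with median scaling, 2 with normexp and 2 with brighter probes. Their median of -0.43 became -0.13 with the mean over probes, which averages the disagreeing probes of Nsdhl and Dhcr7. Median scaling shifted all genes' median by 0.14, and it gave 23 members (63.9%) higher in CD8+ cells, where 71.5% of all genes then were. Alternatives that leave out a replicate could not be run with 1 array per group. Dim signals limit Acaca, Fads2 and Insig1 most, since their signals lay nearest to background among the probes used.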
